A study of Mus musculus with 2 samples.

Results

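Interferon-stimulated antiviral genes are the genes that cells switch on after interferon binds its receptor, and whose proteins sense, bind or degrade foreign nucleic acid or block steps of a virus's life cycle. A list of 39 such genes, drawn up outside the Gbp, Irf and Stat families, was matched by gene symbol to a count table of regulatory T cells (Treg cells, T helper lineage cells marked by the factor Foxp3 that hold other immune cells in check). All 39 were found among 24081 gene symbols. All 39 also had a mean of at least 20 reads over both libraries, a floor that 10899 genes passed and that is called measured here.

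The table holds 2 RNA-seq libraries of CD4+ YFP+ Treg cells from lymph nodes and spleen of 5-week-old C57BL/6 mice, KO and WT. Both carry a Foxp3-driven Cre on 1 of the X chromosomes (Foxp3cre/wt), with YFP as the mark of the cells that express Cre. The KO mice had both alleles (fl/fl) and the WT mice 1 allele (fl/wt) floxed of a gene of the SUMO pathway, which attaches small SUMO proteins to other proteins, so the WT library also comes from cells with Cre and a floxed allele. Each library pooled cells of 5 to 10 mice, with 1 library per group. No difference below has a replicate check, no p-value was made, and the spread between mice is unknown. In Foxp3cre/wt animals the Treg cells that use the other X chromosome express no Cre and stay in the host, so the sorted cells developed beside unmodified Treg cells. The labels' genotype field says wild type of KO and WT alike, so directions rest on the titles KO and WT.

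Type I interferons bind the receptor chains Ifnar1 and Ifnar2, and the kinases Jak1 and Tyk2 then activate STAT proteins, which with Irf9 bind interferon-stimulated response elements (ISRE) in promoters. Interferon gamma binds Ifngr1 and Ifngr2 and acts through STAT dimers on gamma-activated sites (GAS). In T cells many of these genes are also expressed at a basal level. In mouse dendritic cells and macrophages, loss of SUMOylation has been found to raise antiviral gene expression; whether Treg cells lacking the pathway do so is the question these genes can be set against.

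Promoter sequences show a feature that many of the members searched share. The reference table of RefSeq promoters (GRCm38.p6, 250 bases before to 50 after the start site) held 28 of the 39 members, and Dhx58, Ifi27l2a, Iigp1, Mx1, Mx2, Oas2, Parp14, Parp9, Rtp4, Usp18 and Zbp1 had no entry. The ISRE core was searched as GAAANNGAAA on both strands. It was found in 16 of the 28 members (57.1%), against 1079 of 27025 genes in the table (3.99%) and 329 of 8386 measured genes with an entry (3.92%). The GAS core TTCNNNGAA, which reads the same on both strands, was found in 10 members (35.7%), against 9.55% of genes in the table. Both were found in 6 members, and the matches overlapped each other in Bst2 and Ifitm3. A match is a description of letters and not a shown binding site.

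The 250 bases before the start site are given for 3 members. Isg15, the ubiquitin-like modifier, shows a run of overlapping ISRE cores, the first of which begins 78 bases upstream. Cxcl10 and Xaf1 are the members with the lowest and the highest ratio of KO over WT. Sequences run 5′ to 3′ on the gene's strand, and capitals mark ISRE cores. The windows are chr4:156200819-156201068 for Isg15 and chr5:92348890-92349139 for Cxcl10, both on the minus strand, and chr11:72301379-72301628 for Xaf1, on the plus strand.
Isg15: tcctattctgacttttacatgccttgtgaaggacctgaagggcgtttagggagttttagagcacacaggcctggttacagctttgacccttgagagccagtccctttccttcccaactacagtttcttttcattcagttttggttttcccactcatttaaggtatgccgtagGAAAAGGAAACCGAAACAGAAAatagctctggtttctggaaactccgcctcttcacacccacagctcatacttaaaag
Cxcl10: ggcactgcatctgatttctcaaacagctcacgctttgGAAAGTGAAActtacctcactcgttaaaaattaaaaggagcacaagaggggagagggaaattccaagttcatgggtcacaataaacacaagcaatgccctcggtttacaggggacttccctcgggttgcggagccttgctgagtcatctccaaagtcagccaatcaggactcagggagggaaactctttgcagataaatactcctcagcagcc
Xaf1: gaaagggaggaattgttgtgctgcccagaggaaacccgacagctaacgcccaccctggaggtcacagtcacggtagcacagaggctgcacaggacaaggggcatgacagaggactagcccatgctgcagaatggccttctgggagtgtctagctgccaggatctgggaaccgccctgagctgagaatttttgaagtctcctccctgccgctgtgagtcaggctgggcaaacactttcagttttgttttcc

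The Isg15 window holds GAAAAGGAAA, GAAACCGAAA and GAAACAGAAA in a row, 6 bases apart. Cxcl10 holds GAAAGTGAAA, beginning 213 bases upstream. Ifit1 holds the same letters as Cxcl10 104 bases upstream and GAAACTGAAA 85 bases upstream, both on the opposite strand. Igtp and Irgm2, neighbouring GTPase genes on chromosome 11, hold GAAACTGAAA 34 and 64 bases upstream. No ISRE or GAS core lies in the Xaf1 or Ifi44 window, which says only that these letters are not in it.

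As a set, the 39 genes were at close levels in both libraries. The KO library held 124449 reads of these genes and the WT library 63310. Counts were scaled by TMM, a method that sets library sizes by the bulk of genes. CPM is reads as a share of the scaled library size, the usual depth-corrected unit. The members summed to 5373 CPM in KO and 5285 in WT, a ratio of 1.02, against 1.05 over all genes. Samhd1 (1816 and 1691 CPM in KO and WT) and Sp100 (910 and 850) make up a large part of these sums, so the sums mostly follow them. The median log2 ratio of KO over WT (on scaled counts with a pseudocount of 1, as for all log2 ratios here) was -0.08 over the members and 0.01 over all measured genes. The middle 50% of members ran from -0.18 to 0.25, and of all measured genes from -0.20 to 0.25. 16 members lay above 0 and 23 below, against 5601 and 5298 of the 10899 measured genes.

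Only 3 members differed by 1.5-fold or more, the size called here. Xaf1 and Ifi44 were higher in KO, which is 5.13% of members against 7.43% of all measured genes. Cxcl10 was lower, 2.56% of members against 5.51% of all measured genes. At 2-fold, Xaf1 was higher, 2.56% of members against 1.59% of measured genes, and Cxcl10 lower, 2.56% against 2.08%. At 1.5-fold the shares of members called were thus below those of the whole table and at 2-fold above them. Each share rests on 1 or 2 genes, so these differences are not read as a result.

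Depth allowed smaller differences to be seen above counting error. For each gene an exact 95% interval of the ratio was made from the raw reads (conditional binomial, Clopper-Pearson). It covers counting error only, treats reads as independent molecules and takes the TMM scaling as exact. 15 members had an interval wholly above 1 (38.5%, against 29.1% of measured genes), 14 wholly below 1 (35.9%, against 25.6%), and 10 held 1. Differences thus ran both ways, mostly by less than 1.5-fold.

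**Figure D1:**
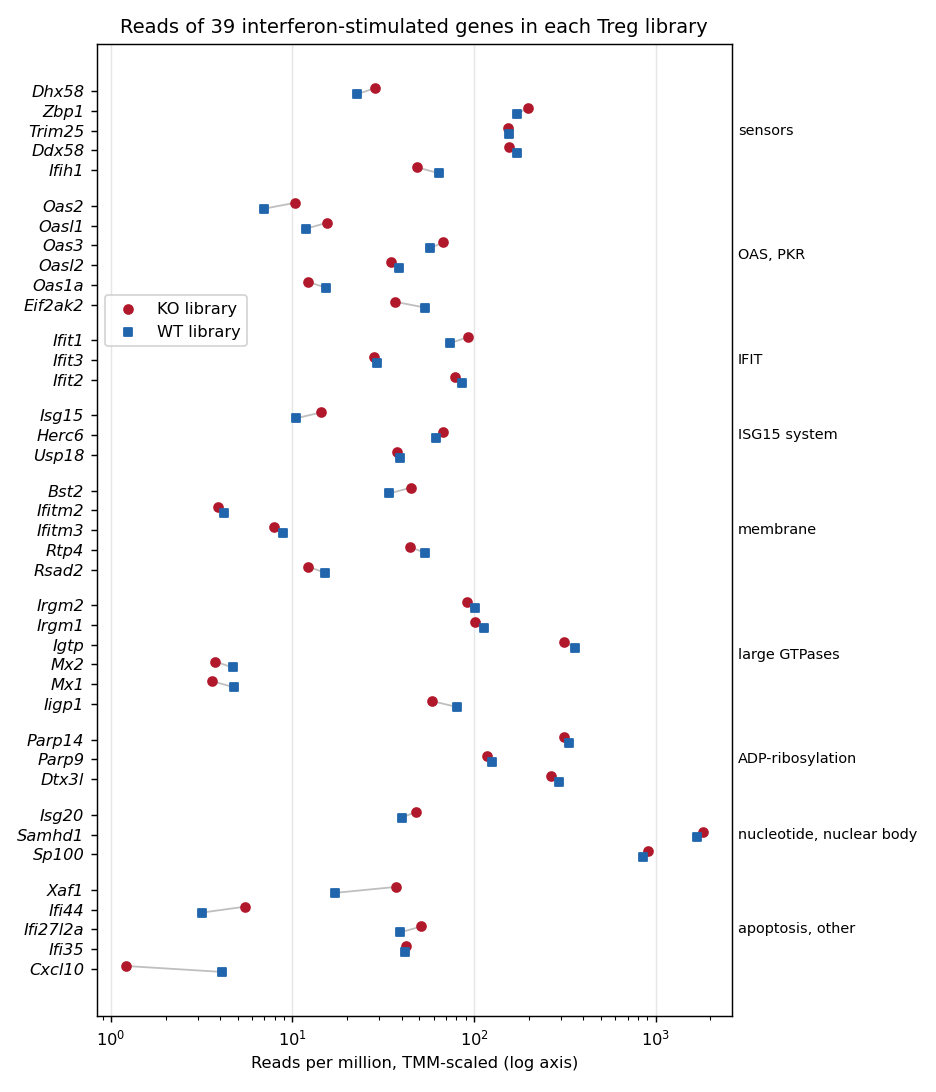
CPM after TMM scaling (log axis) of the 39 members in the KO library (circles) and the WT library (squares), grouped by role; 1 library per group, so there are no error bars. Levels span from 1.21 CPM (Cxcl10 in KO) to 1816 (Samhd1 in KO), and the symbols of most genes lie close together.

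Levels were set per kilobase of exon to compare genes with each other. The mean of both libraries ran from 0.706 CPM per kilobase for Ifi44 to 192 for Samhd1, with a median of 16.4. Of the 39 members, 27 lay above the median of measured genes, 7.13. Samhd1, which hydrolyses deoxynucleotides and thereby starves viral DNA synthesis, and Sp100, a protein of PML nuclear bodies that is itself a known SUMO target, were among the highest. Samhd1 had 199 CPM per kilobase in KO and 185 in WT, Igtp, a GTPase that acts on pathogen vacuoles, 155 and 177, and Sp100 120 and 112. Ifi27l2a (111 and 84.4), Zbp1 (56.2 and 48.7) and Dtx3l (46.6 and 51.4) followed.

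Samhd1 had 42071 reads in KO and 20261 in WT, or 1816 and 1691 CPM. It was 1.07-fold higher in KO (interval 1.06 to 1.09). Sp100 had 21076 and 10179 reads in KO and WT, 1.07-fold higher in KO (1.05 to 1.10). Both genes were thus close between the libraries, with narrow intervals that take the TMM scaling as exact. With total-count scaling the log2 ratio of Samhd1 was 0.03, against 0.10 with TMM, and that of Sp100 0.02, against 0.10. Isg20, an exonuclease that degrades RNA, had 1113 reads in KO and 478 in WT, 1.20-fold higher (1.08 to 1.34). All 3 genes of this group of nucleotide and nuclear body factors lay above 0 on the log2 scale, between 0.10 and 0.27, but Isg20 was at -0.07 with the trend on GC content and length removed.

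Xaf1 was the member with the largest difference upward. It encodes XIAP-associated factor, which promotes apoptosis, and lies on chromosome 11 (72301629 to 72313733, plus strand, GRCm38). It had 861 reads in the KO library and 206 in the WT library, or 37.2 and 17.2 CPM. That is 2.16-fold higher in KO (1.85 to 2.53), and 1.12% of measured genes had a higher ratio. Only 2.94% of its 50-base words occur in transcripts of other genes, and no other annotated exon overlaps it.

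Ifi44, an interferon-induced gene of chromosome 3 (151730922 to 151749960, minus strand), was the other higher member. It had 127 reads in KO and 38 in WT, 1.73-fold higher (1.19 to 2.55). Its interval reaches below 1.5-fold, so the size of the difference is not fixed by these reads. Its level per kilobase was the lowest of the 39.

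Cxcl10 was the member with the largest difference downward. It encodes a chemokine that draws cells bearing Cxcr3 and is induced by interferon gamma and by other interferons. It had 28 reads in KO and 49 in WT although the KO library was deeper, or 1.21 and 4.09 CPM. It was 3.38-fold lower in KO (interval 2.09 to 5.59). The gene lies on chromosome 5 (92346638 to 92348889, minus strand), and 133 of its exon bases overlap Art3 on the opposite strand, which had 5 reads in KO and 14 in WT. Of its close relatives, Cxcl9 had 73 and 35 reads in KO and WT (1.08-fold, 0.712 to 1.66), and Cxcl11 had no read in either, which allows up to 3 reads in each.

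Cytosolic sensors start the response. None of the 5 was called, against 7.43% of all measured genes higher and 5.51% lower. A set this small can hold no called gene at those shares. Dhx58 (LGP2), a helicase that tunes the other RNA sensors, had 660 reads in KO and 272 in WT, 1.25-fold higher (1.09 to 1.45). Zbp1, which binds Z-form nucleic acid and can trigger necroptosis, had 4597 and 2060 reads, 1.15-fold higher (1.10 to 1.22). Ddx58 (RIG-I), the sensor of RNA with triphosphate ends, had 3617 and 2064 reads, 1.10-fold lower in KO (1.04 to 1.17). Ifih1 (MDA5), the sensor of long double-stranded RNA, had 1118 and 764 reads, 1.32-fold lower (1.20 to 1.45). The RNA sensors thus lay on both sides of no difference. Trim25, a ubiquitin ligase that acts with RIG-I, had 3566 reads in KO and 1859 in WT, and its interval held 1 (0.938 to 1.05).

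The OAS enzymes make oligoadenylates in response to double-stranded RNA and so activate RNase L, and Eif2ak2 (PKR) halts translation. Oas2 had 239 reads in KO and 83 in WT, 1.49-fold higher (1.16 to 1.94), just under the size called. Oasl1, an OAS-like protein, had 361 and 143 reads (1.31-fold higher, 1.073 to 1.596), and Oas3 had 1563 and 685 (1.18-fold higher, 1.08 to 1.29). Oasl2 had 806 and 464 reads with an interval that held 1, and Oas1a 282 and 184, 1.26-fold lower (1.04 to 1.52). The Oas1a value is uncertain, since 57.6% of its 50-base words also occur in other genes, led by Oas1g. Eif2ak2 had 846 reads in KO and 644 in WT, 1.47-fold lower (1.33 to 1.63). With total-count scaling its log2 ratio was -0.63, past 1.5-fold. The family therefore lay on both sides, with Oas2 next below the called members and Eif2ak2 next above Cxcl10.

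IFIT proteins bind viral RNA and block its translation, and the 3 genes lie together on chromosome 19. Ifit1 had 2133 reads in KO and 881 in WT, 1.25-fold higher (1.16 to 1.36). Ifit2 had 1814 and 1030 reads, 1.10-fold lower (1.02 to 1.19). Ifit3 had 653 and 349 reads with an interval that held 1. Of its 50-base words, 51.2% occur in Ifit3b, and reads that lie within those words cannot be told apart between these copies.

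Isg15 is conjugated to other proteins by Herc6 in the mouse and removed by Usp18, which also brakes signalling at Ifnar2. Isg15 had 333 reads in KO and 125 in WT, 1.38-fold higher (1.12 to 1.71). Herc6 had 1565 and 741 reads, 1.09-fold higher, with the lower bound of its interval at 1.00. Usp18 had 868 and 469 reads, and its interval held 1 (0.854 to 1.07). Ube2l6, the conjugating enzyme for Isg15 and not one of the 39, had 344 reads in KO and 316 in WT, 1.78-fold lower (1.52 to 2.08). The modifier and its conjugating enzyme thus lay on opposite sides.

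Proteins of membranes act at entry, assembly or release of viruses. Bst2 (tetherin), which holds budding virus at the cell surface, had 1046 reads in KO and 408 in WT, 1.33-fold higher (1.18 to 1.49). The entry inhibitors Ifitm2 and Ifitm3 had few reads, 90 and 184 in KO and 50 and 106 in WT, and both intervals held 1. Of the 50-base words of Ifitm2, 48.5% occur in other genes. Rtp4, a restriction factor of flaviviruses, had 1023 and 642 reads in KO and WT, 1.21-fold lower (1.10 to 1.34). Rsad2 (viperin), an enzyme that makes a chain-terminating nucleotide, had 281 and 180 reads, 1.24-fold lower (1.0215 to 1.4988).

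All 6 large GTPases lay below 0 on the log2 scale, as did 5298 of the 10899 measured genes. None reached 1.5-fold, against 7.43% of all measured genes higher and 5.51% lower. Igtp, Irgm1, Irgm2 and Iigp1 are immunity-related GTPases, known as targets of interferon gamma in the mouse that act on vacuoles of intracellular parasites and bacteria. Iigp1 had 1354 reads in KO and 964 in WT, 1.38-fold lower (1.266 to 1.496). Igtp had 7240 and 4288 reads, 1.15-fold lower (1.10 to 1.19), Irgm1 2345 and 1356 (1.12-fold lower, 1.05 to 1.20), and Irgm2 2105 and 1214 (1.12-fold lower, 1.04 to 1.20). The 4 intervals lay below 1, so these differences exceed counting error while being small. Igtp and Irgm2 share 162 exon bases in the annotation. Mx1 and Mx2, dynamin-like GTPases whose alleles are defective in C57BL/6, had 84 and 87 reads in KO and 57 and 56 in WT, and both intervals held 1. The summed level of the 6 genes was 571 CPM in KO and 662 in WT, a ratio of 0.861.

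Parp9, Parp14 and Dtx3l carry out or pair with ADP-ribosylation and ubiquitin transfer in the interferon response, and Parp9 and Dtx3l form a complex. Their log2 ratios were nearly alike, from -0.14 to -0.08. Dtx3l had 6177 reads in KO and 3526 in WT, 1.10-fold lower (1.06 to 1.15). Parp14 had 7242 and 3967 (1.06-fold lower, 1.02 to 1.10), and Parp9 2727 and 1498, with an interval that held 1. Dtx3l and Parp9 share 458 exon bases on opposite strands, and no source used here states if strand was used in counting.

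Of the remaining members, Ifi27l2a, a gene strongly induced by interferon in many mouse tissues, had 1189 reads in KO and 468 in WT, 1.31-fold higher (1.18 to 1.47). Ifi35, a partner of Nmi, had 978 and 502 reads, and its interval held 1 (0.904 to 1.12).

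**Figure D2:**
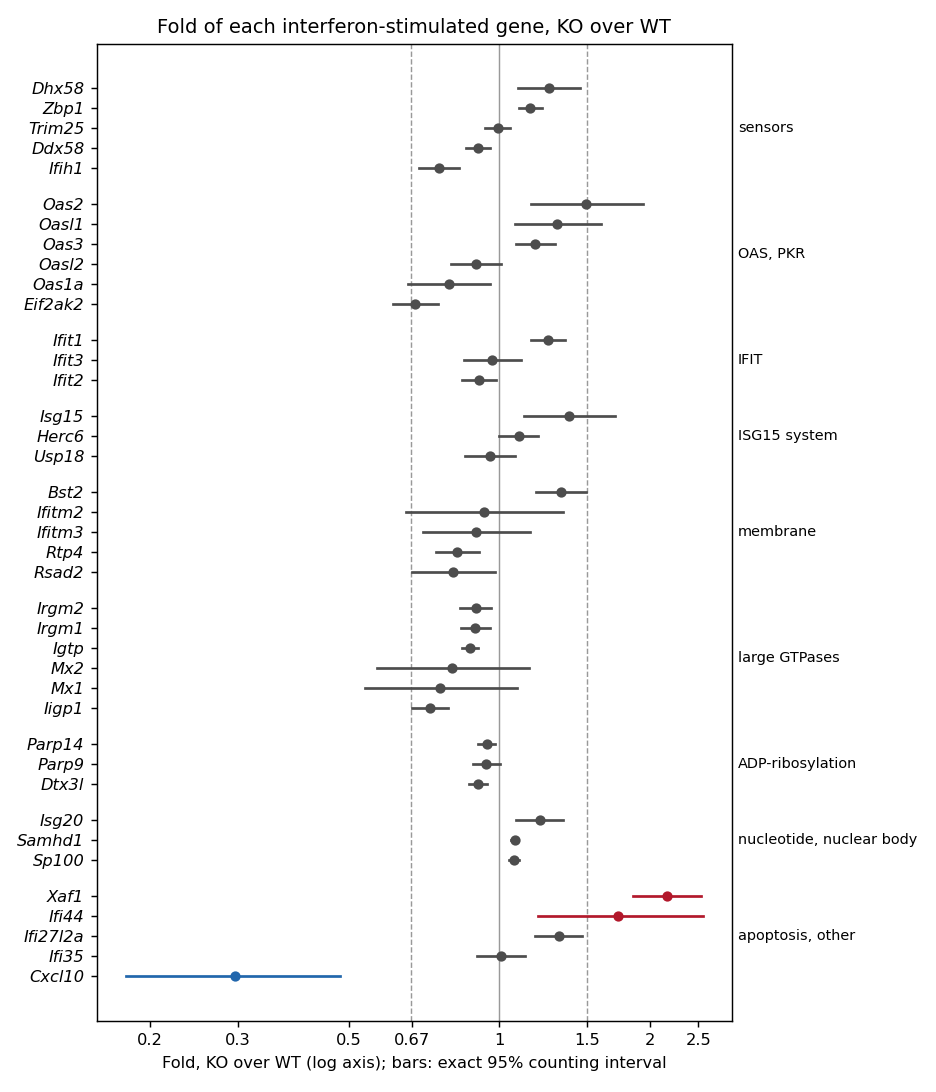
Fold of KO over WT (log axis) of each member with its exact 95% counting interval (bars), grouped by role; dashed lines mark 1.5-fold in either direction. Xaf1 (2.16) and Ifi44 (1.73) lie beyond the upper line and Cxcl10 (0.296) beyond the lower one, and all 6 large GTPases lie left of 1.

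Members with an ISRE core in the promoter window did not lie above those without. The 16 with a core had a median log2 ratio of -0.16, from -1.71 to 0.46, and the 12 without one 0.10, from -0.15 to 1.11. Both higher members, Xaf1 and Ifi44, were among those without, and Cxcl10 among those with. Over all measured genes in the promoter table the medians were -0.06 for 329 genes with the core and 0.02 for 8057 without. The members without a core include genes whose response element may lie outside the window, so the groups describe the window alone.

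The ligands and signalling genes of the pathway were set beside the members, from lists chosen with earlier results of these data known. Of 19 interferon ligand genes, 16 had no read in either library, among them Ifnb1 and all 11 Ifna genes listed, which allows up to 3 reads of each per library. Ifnz and Ifnl3 had 1 read each, in KO. Ifng, the interferon of activated T cells and NK cells, had 18 reads in KO and 31 in WT, 3.33-fold lower (1.81 to 6.32). It was the one measured ligand. Targets of interferon gamma are named here as single genes, not as a full list. Among the members, Cxcl10 was called lower, and the 4 immunity-related GTPases were lower by less than 1.5-fold. All 10 measured guanylate-binding protein genes, given below, had a log2 ratio under 0. Of other genes outside the 39, Tgtp1, an immunity-related GTPase, was 1.27-fold higher (1.17 to 1.37). Psmb8, an immunoproteasome subunit, was 1.42-fold higher (1.35 to 1.49) and Tap1, a peptide transporter, 1.30-fold higher (1.26 to 1.35). With the trend on GC content and length removed, Tgtp1, Psmb8 and Tap1 were at 0.45, 0.52 and 0.18 on the log2 scale. The intervals of Tgtp2, Cxcl9 and Irf1 held 1. Socs1, given below, was 1.88-fold higher. Whether the difference in Ifng bears on these genes was not tested.

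Receptors and their kinases differed little. Of 5 measured receptor genes none was called, against 7.43% of all measured genes higher and 5.51% lower. Ifnar1 had 6550 reads in KO and 3096 in WT (1.09-fold higher, 1.05 to 1.14), and Ifnar2 3108 and 1623 with an interval that held 1. The interferon gamma receptor chains lay on opposite sides, Ifngr1 with 7121 and 4566 reads (1.24-fold lower, 1.19 to 1.29) and Ifngr2 with 1749 and 685 (1.32-fold higher, 1.21 to 1.44). Il10rb, shared with the receptor of interferon lambda, had 1865 and 1269 reads, and Ifnlr1 had 2 reads in KO and none in WT. None of the 7 kinase and STAT genes was called, against the same shares, with log2 ratios from -0.34 (Stat4) to 0.21 (Jak1). Sets this small can hold no called gene at those shares. Jak2, Tyk2 and Stat2 had intervals that held 1, and Stat3 was at 0.13. The measured receptor and kinase genes thus lay within 1.5-fold between the libraries.

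Further downstream, which genes were called depended on whether the GC and length trend was removed. None of the 7 interferon regulatory factors was called, against 7.43% of all measured genes higher and 5.51% lower. Irf7, the amplifier of type I interferon, had 2454 reads in KO and 918 in WT (1.38-fold higher, 1.28 to 1.49). Irf9 was at 0.06, Irf1 at 0.05 and Irf5 at -0.54 on the log2 scale. None of 16 sensing adaptors and kinases was called, against the same shares. Of 10 brakes on interferon signalling 2 were higher, against 7.43% of all measured genes, and none lower. Socs1, which inhibits the Janus kinases, had 680 reads in KO and 187 in WT, 1.88-fold higher (1.597 to 2.223). Irf2bp1, a corepressor of Irf2, had 1389 and 472 reads, 1.52-fold higher (1.37 to 1.69). With the trend on GC content and length removed, Socs1 was at 0.57 and Irf2bp1 at 0.10 on the log2 scale, both under 1.5-fold. Irf5 was then at -0.70 and Trex1, an exonuclease that clears cytosolic DNA and one of the sensing list, at -0.72, against -0.36 before, both past 1.5-fold downward. Over the 6 pathway lists, 46 of 65 genes were measured, and the median was 0.05. Of the 46, 2 were higher, 1 lower and 43 between, against 7.43% of all measured genes higher and 5.51% lower.

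Among other interferon-induced genes, the guanylate-binding proteins, GTPases that attack pathogen vacuoles, lay below the members. All 10 measured Gbp genes had a log2 ratio under 0, with a median of -0.36, and 3 were called lower, against 5.51% of all measured genes: Gbp2b with 19 reads in KO and 308 in WT, Gbp3 with 875 and 1015, and Gbp10 with 612 and 507. With the trend removed Gbp10 was at -0.56, under 1.5-fold, 2 were called, and Gbp4 (0.03) and Gbp7 (0.02) lay above 0. A further list held 66 measured genes, with a median of -0.06. Of these, 3 were higher, 6 lower and 57 between, against 7.43% of all measured genes higher and 5.51% lower. The 3 higher genes were Trim12a (1429 reads in KO and 335 in WT, 2.21-fold), Trim30d (497 and 150, 1.71-fold) and Trim34a (1095 and 340, 1.67-fold). They lie in 1 cluster on chromosome 7, between 104244457 and 104507849, where Trim12c and Trim30a were at -0.41 and -0.13 on the log2 scale. Genes of this cluster are similar in sequence, so their counts are less certain. The 6 lower genes were Phf11a (2.03-fold lower), Ifi30 (1.84-fold), Ube2l6, Ifitm10 (1.68-fold, interval 0.876 to 3.20, which holds 1), Ccl5 (1.61-fold, 0.999 to 2.59, which also holds 1) and Ly6a (1.53-fold).

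**Figure D3:**
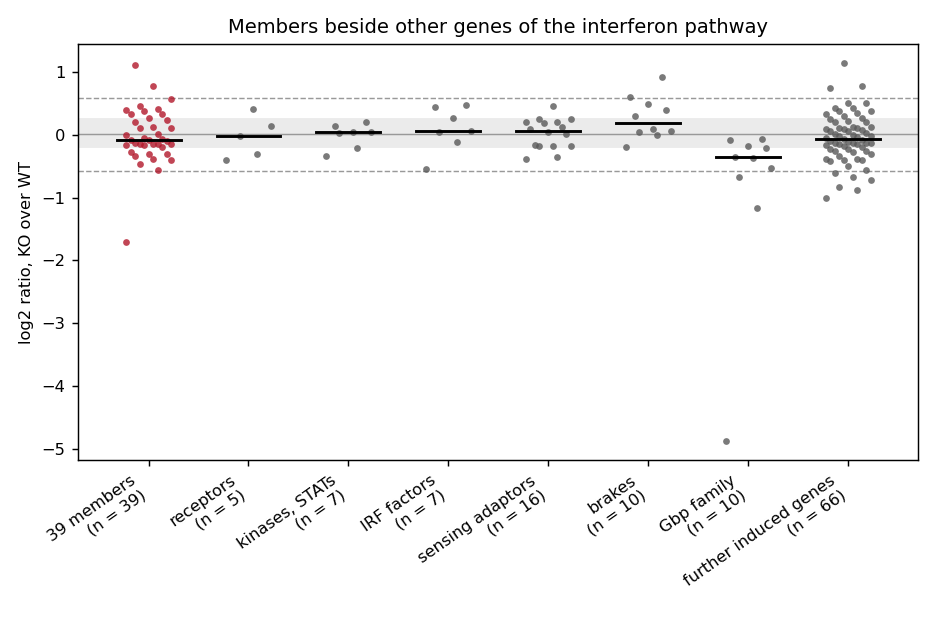
Log2 ratio of KO over WT of each measured gene in the 39 members and in 7 lists of the interferon pathway (points), with the median of each list (bars); the grey band holds the middle 50% of all measured genes and dashed lines mark 1.5-fold. The member median is -0.08, the Gbp median -0.36 and the median of brakes 0.19.

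Over the whole table, GC-rich transcripts tended to have higher ratios of KO over WT. The median log2 ratio was -0.18 among the 1047 genes poorest in GC and 0.36 among the 1046 richest, with a Spearman correlation of 0.41 across 10467 genes, which are not independent replicates. Over the 39 members the correlation was 0.37. When a smooth trend on GC content and transcript length was removed, the same 3 members were called (against 4.29% of measured genes higher and 5.89% lower), and the member median was -0.07. Xaf1 was then at 1.16, Ifi44 at 0.93 and Cxcl10 at -1.63 on the log2 scale. Members rich in GC mostly moved down: Bst2 was at 0.03, against 0.41 before, Ifi27l2a at 0.04, against 0.39, and Isg15 at 0.19, against 0.46. Ifitm2 was at -0.51, against -0.10, and Ifitm3 at -0.43, against -0.15, farther from 0 than before. Ifit1, poorer in GC, was at 0.45, against 0.32. The sign changed for Isg20 (-0.07, against 0.27), Ifi35 (-0.10, against 0.01), Ifit3 (0.05, against -0.05) and Ifit2 (0.00, against -0.13). All 6 large GTPases stayed below 0, between -0.35 and -0.09. How much of the trend is technical was not tested.

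**Figure D4:**
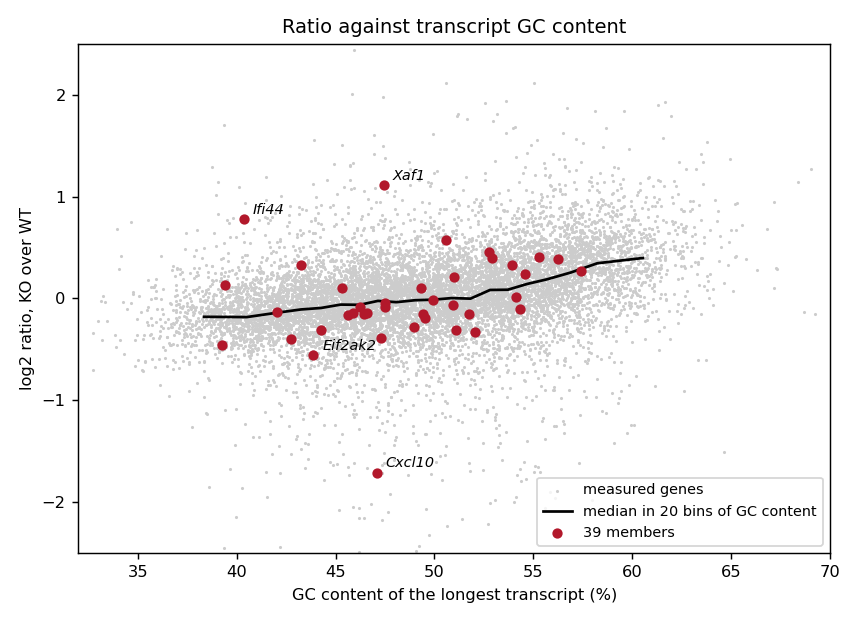
Log2 ratio of KO over WT against GC content of the longest transcript, for 10439 measured genes (grey; 28 lie outside the axes) and the 39 members (red); the line joins medians of 20 bins of GC content. The line climbs with GC content, and Xaf1, Ifi44 and Cxcl10 lie far from it.

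Facts of the libraries bear on these values. The KO library held 23789264 reads in genes and the WT library 11662867, 76.6% of counted entries in each. Defining Treg genes were present: Foxp3 (30579 reads in KO and 8540 in WT, 1.85-fold higher), Il2ra (28043 and 10648) and Cd4 (54375 and 23224). Of the 7 measured genes of that list, Foxp3 alone was called higher, against 7.43% of all measured genes. Ikzf2 (4706 and 3859 reads, 1.59-fold lower) and Ctla4 (2056 and 1712, 1.61-fold lower) were called lower, against 5.51%. All 12 measured markers of effector Treg cells, the activated subset, were called lower, against 5.51% of all measured genes. Their summed level was 115 CPM in KO and 481 in WT. Cxcr3, the receptor for Cxcl10, was among them with 64 and 546 reads (16.5-fold lower). In pooled cells, fewer cells of a kind and less RNA per cell cannot be told apart.

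Markers of other cells were present in both libraries, some well above the median of measured genes per kilobase. Lyz2 of myeloid cells stood at 95.9 CPM per kilobase in KO and 93.5 in WT, Csf1r of macrophages at 40.7 and 46.2, and Cd79a of B cells at 27.1 and 24.8. The 7 measured markers of monocytes and macrophages, cells that can make Cxcl10, held no called gene, against 7.43% of all measured genes higher and 5.51% lower. They summed to 403 CPM in KO and 436 in WT. The 9 dendritic cell markers listed summed to 135 and 115 CPM. Ccr9 (54.6 and 37.1 CPM) and Irf8 (44.3 and 48.3) make up a large part of these sums. Of the 7 that were measured none was called, including Siglech of plasmacytoid cells with 233 and 110 reads. B and plasma cell markers summed to 107 and 135 CPM. Of the 6 measured, Cd79b (2.06-fold) and Ms4a1 (1.64-fold) were called lower, against 5.51% of all measured genes. On the log2 scale 3 of the 6 lay above 0, Cd79a among them, and 3 below. CD8 T and NK cell markers summed to 50.6 and 47.3 CPM. Of the 5 measured, 1 was higher and 2 lower, against 7.43% and 5.51% of all measured genes. Neutrophil markers summed to 6.95 and 4.84 CPM and erythroid markers to 5.57 and 14.3, where all 4 globin genes listed had no read. The part of these cells, and of the change in effector Treg markers, in the values of the members was not tested.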

How the data were processed

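RNA-seq of 2 mouse Treg libraries was used. Per the labels' protocols, Trizol RNA was enriched for mRNA with oligo-dT beads and prepared with a transposase kit. The submitters' processing notes name TopHat2 2.0.3, HTSeq and mm10; no source used here states the annotation, strand setting or filters. The authors deposited raw counts per gene symbol. Entries that name no gene did not enter library sizes: 15.0% of KO and 15.6% of WT entries aligned to several places, 6.82% and 6.26% lay outside exons, and 1.57% and 1.53% were ambiguous.

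Counts were scaled by TMM (edgeR 4.0.16, R 4.3.3; factors 0.974 for KO and 1.03 for WT). Log2 ratios used a pseudocount of 1, and folds and intervals none. GENCODE M21 (GRCm38, the build of mm10) gave positions, GC content and exon lengths; shared sequence is the share of 50-base words found in transcripts of other genes. Python 3.11.15 with pandas 2.3.3, numpy 2.4.6, scipy 1.17.1 and matplotlib 3.10.9 did the rest, tested on simulated data. Alternatives were total counts, upper-quartile factors, DESeq2 1.42.0 size factors, pseudocounts of 0.5 and 5, floors of 1 and 100 counts, 2-fold, and removal of a spline trend on GC content and length.

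Members, lists and the naming rule were chosen with earlier results of these data known. The rule gives full values for called members, the 6 highest per kilobase and those whose call changes, and names receptors, kinases, STATs, detected ligands and called genes of the other lists. Values of the other members, Cxcl9, Cxcl11, Art3, Tgtp1, Tgtp2, Psmb8, Tap1, Trex1, single cell markers and the uncalled Irf and Trim genes were added after they were seen. The gene targeted in the KO mice and 1 gene of the signalling lists are not reported here.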

Additional observations from a re-analysis of the deposited data

How the results depend on the processing

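The count of members at least 1.5-fold higher was 2 and of those lower 1 with the size factors of DESeq2, upper-quartile factors, pseudocounts of 0.5 and 5, a floor of 1 count and the GC and length trend removed, and all 39 members lay on the same side of the sizes called. With total gene counts, 2 members were higher and 2 lower, Eif2ak2 being the addition, and the median was -0.16; this scaling moves the median of all genes from 0.01 to -0.06. With a floor of 100 counts, 34 members were measured, 1 was higher and 0 lower, since Ifi44 and Cxcl10 are under that floor. At 2-fold, 1 was higher and 1 lower. In an alternative chosen after seeing the data, the 19 members that share no exon base with another gene and under 5% of their 50-base words with others held 2 higher and 0 lower, and their median was 0.10, on the other side of 0; Cxcl10 is not among them, and the cause of the median's shift was not tested. Over all measured genes the split of 810 higher and 600 lower became 623 and 758 with total counts and 449 and 616 with the trend removed. Depth limits the genes with few reads: Cxcl10, Mx1, Mx2, Ifitm2 and Ifi44 have wide intervals. With 1 library per group, no replicate could be left out.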
